A study of Mus musculus with 13 samples.

Results

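These junctions joined the fixed break in the immunoglobulin heavy chain locus (IgH) to DNA around that same break, in the strand orientation written as + in the deposited tables. Junctions were chosen by the measured position and strand of their prey: a junction belonged here if its prey, the DNA found joined to the break, lay on chromosome 12 between 114557038 and 114587038 (mm9) on the + strand. Position and strand are readouts, so they describe the set and are not results about it. The rule found 3103 junctions, which is 45.1% of the 6878 junctions of the 6 IgH libraries and part of the 16455 junctions of all 13 libraries of the series. Of the 3103, 870 came from B cells and 2233 from T cells.

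All 6 libraries carried the genotype labelled IgH2-28xI and came from mouse spleen. The B cells had been activated with anti-CD40 and IL-4 and the T cells with ConcanavalinA and IL-2, so cell type and activation cannot be told apart. Both groups held 3 libraries, labelled 19, 21 and 23. The labels do not say whether these came from separate animals or cultures, so p-values measure only the spread between these libraries. The junction tables carry no cell type marker, and the cell types were taken from the labels.

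High-throughput genome-wide translocation sequencing (HTGTS) starts from a primer beside a chosen break, the bait, and reads across into whatever sequence the broken end joined. I-SceI is a yeast homing endonuclease whose long recognition site does not occur in the mouse genome, so it cuts at the inserted cassette. Broken ends are usually rejoined to each other, and when nucleases first remove bases from an end, a step called resection, the rejoined product lacks the bases between the break and the junction. The mouse IgH locus is transcribed from the minus strand, so higher coordinates lie upstream, towards the switch region S mu. Switch regions are the repetitive stretches where activated B cells exchange one antibody constant region for another, and the deposited label at the bait break is Sg1, the switch region of the IgG1 gene.

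A + strand junction was one whose prey, by the deposited strand, ran from the junction towards higher coordinates. Above the break this direction leads away from the break, and below it towards the break. Distances are given from the break coordinate 114577038, positive above it and negative below it. A + strand junction at a positive distance is a read in which the bait joins genomic DNA with the genomic bases in between absent. The first genomic bases above the break are shown because the most used positions lie there. The 300 bases at chr12:114577037-114577336 (mm9, + strand) are given with 7 of the 10 most used positions in capitals, and the other 3 of those 10 lie farther up.
Reference, first 300 bases: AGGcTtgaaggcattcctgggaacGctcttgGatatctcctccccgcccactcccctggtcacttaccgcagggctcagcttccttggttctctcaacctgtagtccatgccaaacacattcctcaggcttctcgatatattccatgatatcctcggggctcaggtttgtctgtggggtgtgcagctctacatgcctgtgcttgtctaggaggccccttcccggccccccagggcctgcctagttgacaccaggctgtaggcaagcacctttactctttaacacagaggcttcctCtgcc

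The reads did not match mm9 at every base of this stretch, and the 3 differing bases nearest the break are shown in capitals in both versions of chr12:114577037-114577096, read 5′ to 3′ on the + strand.
mm9 reference: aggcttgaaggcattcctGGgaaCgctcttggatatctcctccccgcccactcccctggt
Deposited reads: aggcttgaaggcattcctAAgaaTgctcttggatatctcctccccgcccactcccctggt
Lines differed from mm9 in this way at 20 sites above the break, described with the position use they touch.

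The + strand bait-side junctions made up a smaller part of each B-cell library than of each T-cell library. In B cells these were 34.0% of 933 junctions in library 19 (95% Wilson interval 31 to 37.1), 36.1% of 1115 in library 21 (33.4 to 39.0) and 31.1% of 483 in library 23 (27.1 to 35.3). In T cells they were 50.4% of 1253 junctions in library 19 (47.6 to 53.1), 52.9% of 2707 in library 21 (51.1 to 54.8) and 43.7% of 387 in library 23 (38.8 to 48.6). The groups did not overlap, with the highest B-cell share below the lowest T-cell share. The means were 33.7 ± 2.55% in B cells and 49.0 ± 4.78% in T cells (SD, n = 3 each), a difference of -15.3 percentage points (two-sided exact permutation test, p = 0.1, the smallest that 3 against 3 libraries can give; Benjamini-Hochberg adjusted p = 0.267 over 8 tests). Replicates 19 and 21 of both cell types shared one sequencing run and replicate 23 of both another, by the read names. Within the first run the difference was -16.6 points, and within the second, with 1 library per cell type, it was -12.6 points.

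**Figure D1:**
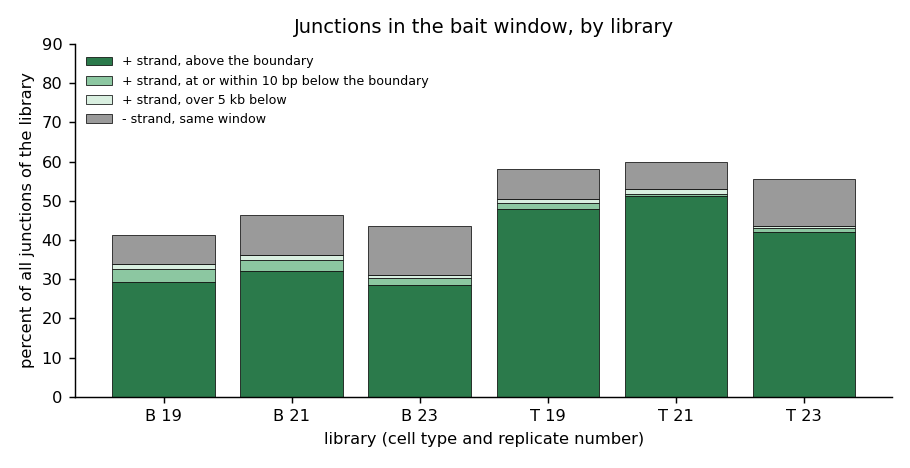
Stacked bars give the percent of each IgH library's junctions that fell in the bait window, split by strand and by position; the x axis names cell type and replicate. The + strand segments together reach 31.1 to 36.1% in B cells and 43.7 to 52.9% in T cells, and the single junction at -2049 bp in B cells 19 is drawn with those at the boundary.

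The 573 junctions on the - strand of the same window gave the strand balance. The + strand took 82.1%, 78.1% and 71.4% of the window in B cells 19, 21 and 23, and 86.8%, 88.3% and 78.6% in T cells. The groups overlapped, with B cells 19 above T cells 23. The means were 77.2 ± 5.40% and 84.6 ± 5.23% (SD, n = 3 each), a difference of -7.36 points (two-sided exact permutation test, p = 0.2, adjusted p = 0.32). Above the break alone the + strand share was nearly flat across libraries, at 93.8%, 94.7% and 92.0% in B cells and 94.5%, 94.7% and 94.8% in T cells. The wider range over the whole window came with the junctions below the break, of which 383 of the - strand and 75 of the + strand were more than 5 kb away.

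The + strand junctions lay almost entirely on the upper side. Of the 3103, 2918 (94.0%) were above the break coordinate, 100 at the boundary (-1 or 0 bp), 75 (2.42%) on the low side from -8152 to -19258 bp, and 10 in between. Those above the break formed a tract that thinned with distance. The lower quartile of their distances was 250 bp, the median was 695 bp, 90% lay within 2035 bp and 95% within 2343 bp. In steps of 500 bp the counts were 1200, 627, 466 and 323 up to 2000 bp. The step from there to 2500 bp held 5.84 ± 1.40% of the junctions of B-cell libraries and 7.82 ± 1.96% of those of T-cell libraries (SD, n = 3 each).

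**Figure D2:**
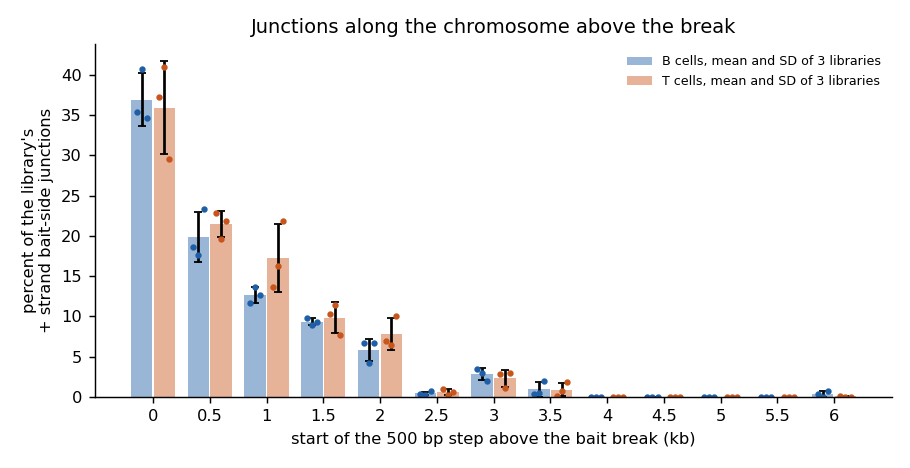
Bars give the mean percent of a library's + strand bait-side junctions in 500 bp steps above the break, with SD over 3 libraries, and points the single libraries; the x axis is the start of each step in kb. B cells had 36.9 ± 3.31% and T cells 35.9 ± 5.80% in the first step, and for both the 2.5 kb step was the lowest before 4 kb.

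The tract was broken at about 2.5 kb. Only 14 junctions lay beyond 2500 and up to 3000 bp, with none between 2509 and 2785 bp, a gap of 276 bp that was the widest below 4 kb. The next steps held 64 junctions up to 3500 bp and 20 up to 4000 bp. Junctions beyond 2500 bp were found in all 6 libraries, at 5.11%, 4.19% and 5.80% of those above the break in B cells and 4.33%, 2.09% and 5.52% in T cells. Of the 500 reference bases in the step from 2500 to 3000 bp, 265 were read by any line, against all 500 in each step below it. Whether the reads can be placed uniquely in the unread part was not tested. The farthest junction of this tract was at 3730 bp, and only 3 lay beyond, at 6002 to 6045 bp, in B cells 19, B cells 23 and T cells 19. No base between 4000 and 6000 bp was read on either strand.

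The median distance from the break was lower in each B-cell library than in each T-cell library when all junctions were counted. The median absolute distance was 652, 575 and 678 bp in B cells 19, 21 and 23, and 716, 694 and 878 bp in T cells. The highest B-cell value, 678 bp, was below the lowest T-cell value, 694 bp. The means were 635 ± 53.6 bp and 763 ± 100.5 bp (SD, n = 3 each), a difference of -128 bp (two-sided exact permutation test, p = 0.1, adjusted p = 0.267). Without T cells 23 the difference was -70 bp. With the most used position left out the groups overlapped, and the difference was -86 bp (exact permutation p = 0.5). For junctions strictly above the break, the boundary left out, the medians overlapped. They were 699, 601.5 and 713 bp in B cells and 738.5, 677 and 895 bp in T cells (671 ± 60.7 against 770 ± 112 bp, SD, n = 3 each; two-sided exact permutation test, p = 0.3, added after the data were seen). Within each of the 3 replicate numbers the B-cell median was the lower, with differences of -39.5, -75.5 and -182 bp (two-sided exact sign-flip permutation test with the number as a block, p = 0.25, the smallest that 3 pairs can give). The distance that held 90% of them also overlapped, at 2150 ± 165 bp in B cells and 2075 ± 121 bp in T cells (exact permutation p = 0.5).

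**Figure D3:**
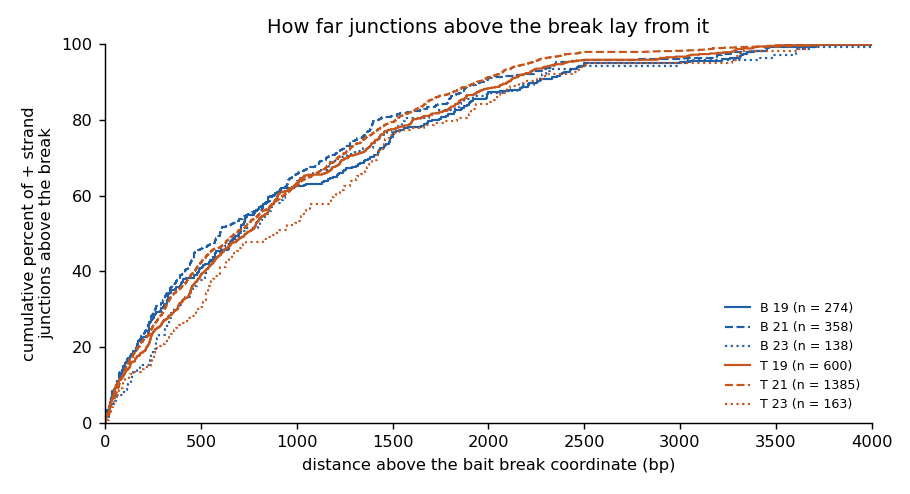
Each curve gives, for 1 library, the cumulative percent of + strand junctions above the break (y axis) within a distance in bp (x axis). The curves of both cell types interleave, T cells 23 lies lowest near 1 kb, and all flatten near 2.5 kb.

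The share close to the break and the share far from it overlapped between cell types when all junctions were counted. Within 50 bp lay 16.7%, 15.9% and 10% of the B-cell junctions and 11.6%, 8.03% and 7.69% of the T-cell junctions, with B cells 23 below T cells 19. The difference of means was 5.10 points (14.2 ± 3.66 against 9.10 ± 2.15%, SD, n = 3 each; two-sided exact permutation test, p = 0.2, adjusted p = 0.32). It was 1.59 points when the single most used position was left out and 1.70 points with 1 junction per position. Beyond 1 kb lay 36.9%, 34.0% and 36.7% in B cells and 36.6%, 38.3% and 46.2% in T cells. That difference was -4.50 points (35.9 ± 1.62 against 40.4 ± 5.09%, SD, n = 3 each; exact permutation p = 0.3, adjusted p = 0.4), and -1.60 points without T cells 23. Within a window of 5 kb on either side, the cell types did not overlap in the share beyond 1 kb. The means there were 33.4% in B cells and 39.3% in T cells (difference -5.93 points, exact permutation p = 0.1, adjusted p = 0.16). The share within 50 bp still overlapped in that window.

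No distance class could pass 0.05 between cell types, since 3 against 3 libraries give no p below 0.1. In 3 of 8 classes that held at least 10 of these junctions, the 3 B-cell and the 3 T-cell libraries did not overlap, against a background of 28.1% of all 32 classes of both strands and both break windows, so the share among these junctions is near the background. From the break to 10 bp below it lay 9.15%, 7.69% and 5.33% in B cells and 3.33%, 1.12% and 2.37% in T cells. Between 10 and 20 kb below lay 1.26%, 0.993% and 2.00% in B cells and 0.634%, 0.977% and 0% in T cells, from 29 junctions in all. The count of 0 of 169 junctions in T cells 23 allows a share of up to 1.78%, by the limit of 3 counts. Between 1 and 5 kb above lay 32.2%, 30.5% and 33.3% in B cells and 34.9%, 36.1% and 45% in T cells. Each of the 3 had p = 0.1, the smallest possible, and adjusted p = 0.356 by the two-sided exact permutation test. Between 11 and 1000 bp above the break all classes overlapped, for instance at 38.7 ± 4.88% in B cells and 39.8 ± 2.18% in T cells (SD, n = 3 each) between 200 and 1000 bp.

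The - strand junctions of the window lay mostly on the low side. Position and strand chose the + strand set, and the window reaches 20 kb below the break but 10 kb above it, so the distances of the strands are given as a description with no test. The median distance on the - strand was 8487.5 to 8672 bp in B cells and 8611 to 8763 bp in T cells. Over 6 libraries the mean of the medians was 699 bp on the + strand and 8645 bp on the - strand, and 38.1% against 84.0% lay beyond 1 kb. The difference in medians shrank from -7946 bp to -571 bp within 5 kb of the break and to -352 bp on the high side alone.

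Use of single positions was spread widely. The 3103 junctions occupied 1542 positions, of which 853 were used once, while 2250 junctions (72.5%) shared a position with another. B cells used 637 positions and T cells 1274, and the 369 used by both were 57.9% of the B-cell and 29% of the T-cell positions. Only 2 positions occurred in all 6 libraries and 58 in at least 4. By the deposited coordinates, 29 lines repeated both junction and far end of another in their library. Whether copies were removed before deposit is not known, so this count cannot tell how many repeats came from one molecule. Across libraries 28 combinations of junction, far end and bait length recurred, covering 56 lines (1.80%).

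At equal depth, B-cell libraries used fewer positions. A draw of 150 junctions, the size of the smallest library, was expected to hold 131.5, 135.8 and 135 positions in B cells and 139.3, 142.1 and 141.1 in T cells. The groups did not overlap (134.1 ± 2.27 against 140.8 ± 1.43, SD, n = 3 each; difference -6.71; two-sided exact permutation test, p = 0.1, adjusted p = 0.267). With the most used position left out the groups overlapped and the difference was -1.57 (exact permutation p = 0.3).

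That position was 114577037, at -1 bp, the first base of the printed stretch. It held 20, 20 and 8 junctions in B cells 19, 21 and 23 and 12, 9 and 4 in T cells, 73 in all. These were 5.54% of the B-cell and 1.63% of the T-cell junctions as means over libraries. The position is labelled Sg1 and is where the cassette meets the genome in most of its reads: in 61 of the 73 the last 12 bases of the cassette flank stood directly before the prey. Of its 72 junctions whose structure could be classified, 71 had bases between the recognised bait and the prey, and all 59 insertions of at least 12 bases held cassette sequence. In those 61 the genome above the boundary was read from its first base.

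The boundary at -1 and 0 bp together held 28, 27 and 8 junctions in B cells and 20, 13 and 4 in T cells. As shares of the + strand bait-side junctions these were 8.83%, 6.70% and 5.33% against 3.17%, 0.907% and 2.37%. B-cell libraries all stood above T-cell libraries, at 6.96 ± 1.76% against 2.15 ± 1.15% (SD, n = 3 each; two-sided exact permutation test, p = 0.1, added after the data were seen). At 0 bp (114577038) 27 junctions were found in 4 libraries and none in replicate 23 of either cell type. In 20 of those 27 the prey part stood on the read in the opposite orientation. The deposited label of these was 2x cassette in the 13 from B cells and Sg1 in the 7 from T cells.

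The second most used position, 114577061 at 23 bp, held 1, 5 and 4 junctions in B cells and 9, 18 and 3 in T cells. It is the base just after the third capital of the compared 60-base sequences. Such sites recurred along the tract. Among 3519 positions read by at least 20 lines, 31 differed from mm9 in at least 50% of lines, 20 of them above the break from 17 to 2076 bp. At these 20 sites 96.3 to 100% of 27 to 357 lines differed, as did 90.9 to 100% at the 11 sites below the break. The highest value at a tested position outside the 31 sites was 10%. Lines that covered at least 1 site carried the non-mm9 base at every covered site in 1463 of 1480 cases (98.9%), and in 309 of 310 that covered at least 3. The share was 98.0 to 100% in all 6 libraries, so B and T cells carried the same differences here.

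Positions just after the 20 sites held 112 junctions, against 21.7 expected from the mean of the 10 neighbouring positions of each. Prey starts were then extended base by base while the read matched mm9, with the reads' own base at such sites. An extension was kept if it crossed a site, with no minimum number of matching bases beyond it. In this way 100 junctions (3.22%) moved, and the positions just after the 20 sites held 20. Only 43 junctions moved by 4 bp or more, and how many shorter moves matched by accident was not tested. At 114577061 the count went from 40 to 4, and at 114577332 from 9 to 0. At 114577669, just after the site at 114577668, it went from 9 to 2. Both of these sites are printed, with the differing base in capitals, at chr12:114577306-114577350 and chr12:114577643-114577687.
Site 114577331, mm9: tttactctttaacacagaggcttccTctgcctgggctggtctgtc
Site 114577331, reads: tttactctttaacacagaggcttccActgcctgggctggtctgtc
Site 114577668, mm9: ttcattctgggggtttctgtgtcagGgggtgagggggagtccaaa
Site 114577668, reads: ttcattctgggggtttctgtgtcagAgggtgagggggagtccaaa
The moves were 24 bp at most, and the medians by library and the shares within 50 bp and beyond 1 kb stayed as they were. The structure shares described further below did change. As means over the libraries, insertions went from 35.2% to 34.0% and microhomology from 57.0% to 58.2%.

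**Figure D4:**
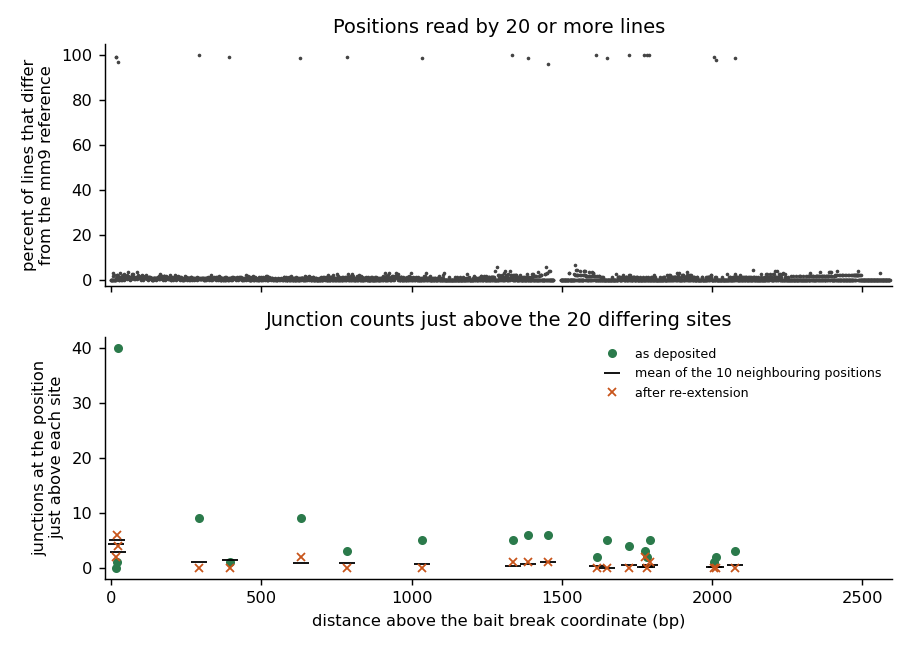
The upper panel gives, for each position read by at least 20 lines, the percent of lines that differ from mm9 against distance above the break in bp, and the lower panel the junction counts just above the 20 differing sites as deposited, in neighbouring positions and after re-extension. The 20 sites stand at 96.3% or more and the rest at 10% or less, and the count of 40 at 23 bp drops to 4.

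The other 7 of the 10 most used positions held 5 to 13 junctions each. Those nearest the break were 114577039 (13 junctions), 114577041 (11) and 114577068 (13), at 1, 3 and 30 bp. The remaining ones were 114577332 (9), 114577558 (5), 114577564 (9) and 114577638 (6), at 294 to 600 bp. The 10 positions together held 206 junctions (6.64%). The position ranked eleventh, 114577269, held 10 junctions in all but a lower mean share, 0.339% against 0.357% for the last of the 10, because each library was weighted equally.

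The junctions also differed in structure, which the rule did not use. A junction with microhomology has bases at the joint that could come from either side, a blunt one has neither shared nor extra bases, and one with an insertion has bases that belong to neither aligned part. Of 3047 classified junctions 53.4% had microhomology, 7.12% were blunt and 39.5% had an insertion. Microhomologies were short: 23.8% had 1 base, 41.2% had 2, 21.1% had 3, 10.2% had 4 and 3.69% had at least 5. The mean was 2.34 ± 0.0667 bases in B cells and 2.35 ± 0.0638 in T cells (SD, n = 3 each). Insertions of 1 to 5 bases made up 14.7% of classified junctions, those of 6 to 29 bases 11.8% and those of at least 30 bases 13%.

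**Figure D5:**
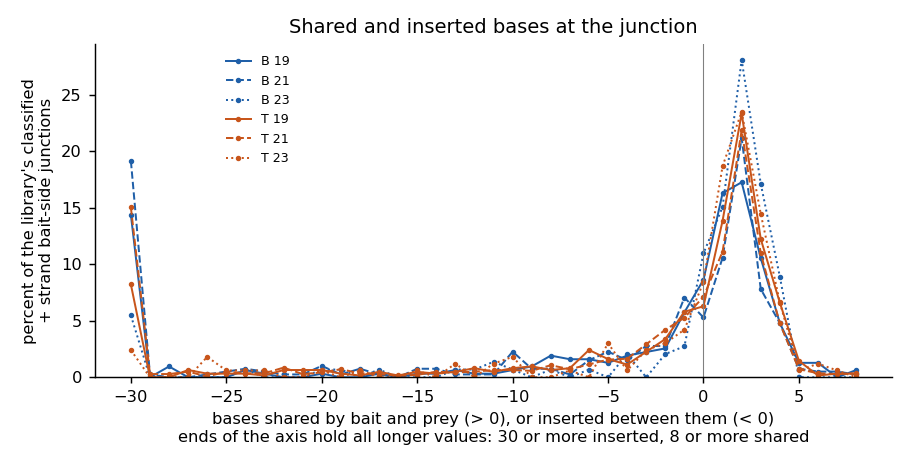
Lines give, for each library, the percent of classified + strand bait-side junctions (y axis) by the bases shared by bait and prey or inserted between them (x axis, end points hold all longer values). All 6 libraries peak at 2 shared bases, and replicate 23 of both cell types has few insertions of 30 bases or more.

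Structure varied more between replicates than between cell types. Insertions were found in 39.3%, 48.4% and 19.9% of the junctions of B cells 19, 21 and 23 and in 35.4%, 42.5% and 25.9% in T cells. Replicate 23 was lowest in both cell types. The means were 35.8 ± 14.6% and 34.6 ± 8.30% (SD, n = 3 each; difference 1.25 points; two-sided exact permutation test, p = 1, adjusted p = 1). Microhomology was found in 52.1%, 46.3% and 69.2% in B cells and 58.3%, 50.4% and 65.7% in T cells, a difference of -2.26 points (55.9 ± 11.9 against 58.1 ± 7.62%, SD, n = 3 each; exact permutation p = 0.8, adjusted p = 0.914). The sign of both differences turned when single libraries or the most used position were left out. Replicate 23 also had shorter reads, with a median length among these junctions of 184 bases in B cells and 185 in T cells against 216 to 265 in the other libraries. The part of read length in the insertion share was not tested.

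Structure also differed by distance when libraries were pooled, as a description with no test. Insertions were 83.7% of junctions at the boundary, 58.6% at 1 to 10 bp, 43.3% from there to 200 bp, 36% between 200 and 2500 bp and 33.7% beyond 2500 bp. Microhomology was 15.3%, 35.7%, 47.9%, 57.3% and 55.4% in the same classes. These classes use the prey starts as deposited, and the class ending at 200 bp includes 114577061. There 33 of 40 junctions had an insertion, and 36 moved on re-extension. When the class from 11 to 200 bp was set against that from 200 to 2500 bp within each library, the insertion share was higher nearer the break in 4 of 6 libraries and the microhomology share lower in 5 of 6. Cassette words were found in 98.4% of the insertions of at least 12 bases at the boundary, 57.1% at 1 to 10 bp, 17.6% at 11 to 200 bp and 27.3% between 200 and 2500 bp.

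Microhomology was more common here than among + strand junctions at the partner break in each of the 6 libraries. That break is the second peak of IgH junctions, 87.454 kb higher on chromosome 12, and 1522 + strand junctions lay in a window of the same shape around it. The bait-side values per library given above stood against 46.9%, 40.2% and 51.2% at the partner in B cells and 54.4%, 44.8% and 53.2% in T cells. The bait side was higher in 6 of 6 libraries, at 57.0 ± 9.01% against 48.5 ± 5.47% (SD, n = 6), a difference of 8.51 points (two-sided exact sign-flip permutation test, p = 0.03125, adjusted p = 0.0625 over 2 tests). The adjusted value did not pass 0.05, and without replicate 23 of both cell types the difference was 5.18 points. The tests over 6 libraries took each library as independent, and whether same-numbered B and T libraries were is not known. With the replicate number as the unit, 3 pairs could give no p below 0.25. Insertions were found in 35.2% of bait-side and 38.5% of partner junctions (difference -3.31 points, exact permutation p = 0.3125), higher at the partner in 4 of 6 libraries. Against the - strand of the bait window, microhomology differed by -4.81 points (exact permutation p = 0.0625) and insertion by 4.69 points (exact permutation p = 0.125). These p-values against the - strand are not adjusted. Both differences shrank, to -1.48 and 0.763 points, with junctions within 50 bp left out. With junctions re-extended through the differing sites, microhomology differed by 9.75 points against the partner and -3.58 points against the - strand. Insertion then differed by -4.51 and 3.49 points. Only the + strand bait-side junctions were re-extended, and the partner and - strand junctions stayed as deposited. These re-extended differences are therefore not like for like.

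The low side held few + strand junctions. The 75 beyond 5 kb below the break numbered 13, 14 and 4 in B cells and 10, 32 and 2 in T cells. As shares of the + strand bait-side junctions these were 4.10%, 3.47% and 2.67% against 1.58%, 2.23% and 1.18%, so each B-cell library stood above each T-cell library (3.41 ± 0.719 against 1.67 ± 0.530%, SD, n = 3 each; two-sided exact permutation test, p = 0.1, added after the data were seen). They were scattered over 72 positions, of which the most used, 114568823 at -8215 bp, held 4. Of the 75, 46 lay from 5 to 10 kb and 29 beyond 10 kb below the break.

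Between -8152 bp and the boundary the + strand was nearly empty. The labels do not describe the structure of the modified allele, and whether it holds the mm9 bases of this stretch was not tested, so distances below the break are mm9 distances only. Of the 10 junctions there, 9 lay at -10 to -8 bp. The remaining one, at 114574989 (-2049 bp), came from B cells 19, was blunt and carried the label Sg1. On the - strand 20 lines fell in the same stretch, all 20 from B cells and 0 from T cells. Of these 21 lines more than 10 bp below the boundary, 16 matched mm9 at every aligned base, against 1028 of 2817 lines from 1 to 2500 bp above it. Per aligned base the mismatch rates were 1.08% and 1.14%. The lines above the break cover sites where nearly all reads differ from mm9, so neither comparison is like for like.

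Labels in the deposited tables named few of these junctions. Sg1 was given to 180 (90 in each cell type), 2x cassette to 13 and no label to 2910. Of the 180, 157 lay from -1 to 10 bp, and 2847 of the junctions above 10 bp had no label. At the window's edges 2 junctions lay within 1 kb inside the low edge and 0 within 1 kb outside it, and 0 lay on either side of the high edge. Between the bait window and the partner window, over 57.454 kb, there were 59 + strand junctions.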

How the data were processed

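HTGTS reads of 3 B-cell and 3 T-cell libraries of the IgH genotype were analysed, with 387 to 2707 junctions each and median read lengths of 183 to 257 bases. The deposited tables give 1 line per read with prey position, strand, read parts and gene label, per the file headers, and an alignment score deposited by the authors. Scores were 30 to 406 and were not tested. The build is mm9 per the submitters' processing notes. The aligner and filters were not given in the sources used here. Coordinates are printed as deposited.

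The bait end on each read was found against the libraries' own bait consensus of 117 bases, and the gap or overlap with the prey start gave the structure class. Tested on simulated data, this recovered 99.57% of 3000 junctions. Those reads had no sequencing errors and only short insertions and overlaps, so long insertions and reads with mismatches were not tested. Reference bases came from the deposited alignments, with 0 conflicts over 11537 positions. Groups were compared per library by exact permutation tests with Benjamini-Hochberg adjustment (python 3.11.15, numpy 2.4.6, pandas 2.3.3, scipy 1.17.1, matplotlib 3.10.9). Named positions are the 10 with the highest mean share of these junctions over the 6 libraries. Wilson intervals cover counting error only. Deviations of same-numbered B and T libraries had positive correlations (0.161, 0.483 and 0.339 over 28 distance bins), the first of them weak. The replicate numbers were therefore also used as a block. No values are given for libraries of different number, this pairing comes from the data, and replicate 23 shares its own run. The junctions and lists were chosen with earlier results of these data known.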

Additional observations from a re-analysis of the deposited data

How the results depend on the processing

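No difference between cell types could pass 0.05 with 3 against 3 libraries, and no adjusted value over 6 libraries did, so the side of the threshold says nothing about stability here. Of 210 recomputed values, 11 changed direction and 2 counts moved by over 1.5 times. Separation of the cell types was lost without the most used position for the median distance (-86 bp) and for positions in an equal draw (-1.57). The B minus T insertion difference turned to -3.60 points with 1 junction per position, -1.44 without the most used position and -1.38 without junctions within 50 bp, and ranged from -5.01 to 9.24 with single libraries left out (-5.01 without B cells 21, -3.10 without T cells 23, -0.481 without B cells 19). The microhomology difference turned to 2.40 with 1 junction per position and 0.0610 without the most used position, and ranged from -8.92 to 2.5 (2.5 without B cells 21, 1.51 without T cells 23). The cause was not tested. In the run of replicates 19 and 21 alone, an alternative added after seeing the data, the insertion difference between bait and partner was 0.336 points. Distance classes without overlap numbered 6 in that run and 6 without B cells 23, against 3 to 6 over all left-out libraries; fewer libraries overlap less by construction.

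With single libraries left out, differences ranged from -17.9 to -13.3 points for the share of the library, -10.4 to -4.47 for the strand balance, -162 to -70 bp for the median distance, 3.84 to 7.20 points within 50 bp, -6.38 to -1.60 points beyond 1 kb and -8.14 to -5.42 for positions in an equal draw. The strand contrasts ranged from -7973 to -7917 bp and -48.1 to -44.4 points, and the bait against partner microhomology difference from 6.63 to 9.45 points. With the replicate block, where the smallest p is 0.25, the share of the library differed by -15.3 points (exact permutation p = 0.25), and the block changed no call. The strand balance differed by -2.78 points within 5 kb. With 1 junction per position no repeats remain, so positions in an equal draw have no value there. Libraries of 150 to 169 such junctions limit what replicate 23 can show, and no mm9 annotation was used here.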
